A study of Mus musculus with 18 samples.

Results

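A set of 10 genes that mark macrophages was followed through the ventral and lateral prostate lobes of TRAMP mice: Lyz2, Adgre1, Csf1r, Cd68, Mrc1, Cd163, F13a1, Cd14, Fcgr3 and Tyrobp. They were picked by symbol, and all 10 were found among the 55469 gene IDs of the expression tables. Every mouse was a male of the strain labelled C56NL/6N and carried 1 copy of TRAMP, a transgene in which the Pb promoter drives the large and small tumour antigens of the SV40 virus in prostatic epithelium and starts tumours there. The WT-TRAMP mice were ELAC2+/+. The KO-TRAMP mice (ELAC2-/-) lacked Elac2 only where Pb-Cre is active, which is prostate epithelium, so macrophages were not the cells in which the gene was deleted. The A537T-TRAMP mice (ELAC2A537T) were homozygous in the whole body for an alanine to threonine change in ELAC2, so their macrophages carried it too. Each line was sampled at 10 and at 30 weeks of age, with 3 libraries of total RNA per line and age and 18 libraries in all. The comparisons ask how macrophage transcripts in the tumour-prone prostate differ between each mutant line and WT-TRAMP of the same age.

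Macrophages are phagocytes that populate nearly every tissue, some seeded before birth and others replenished from blood monocytes. Their survival depends on signals through the receptor CSF1R, they digest what they engulf in lysosomes, and they read antibodies, bacterial products and debris through Fc, toll-like and scavenger receptors. In prostate tumours, as in other solid tumours, macrophages lie in the stroma between the epithelial nests.

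The libraries held 9380174 to 14830104 recovered reads. Values are the authors' normalised counts, which are estimated counts divided by a size factor set separately in each of 4 tables, 1 for each mutant line and age with its 3 WT-TRAMP libraries. Libraries are named by the number in the column header. At 10 weeks libraries 1 to 3 came from WT-TRAMP mice, libraries 4 to 6 from the A537T-TRAMP line and libraries 7 to 9 from the KO-TRAMP line. At 30 weeks the same lines gave libraries 10 to 12, 13 to 15 and 16 to 18. The targeted gene, Elac2, had normalised counts of 359, 289 and 307 in WT-TRAMP and 301, 262 and 254 in KO-TRAMP at 10 weeks, and of 251, 319.6 and 310.04 in WT-TRAMP and 249, 267 and 251 in KO-TRAMP at 30 weeks. At both ages only the lowest WT-TRAMP library fell within the KO-TRAMP range. By limma, the test described below, the log2 fold change was −0.22 (SE 0.14, adjusted p = 0.808) at 10 weeks. At 30 weeks it was −0.19 (SE 0.14, adjusted p = 0.522). These counts are totals over the gene in whole lobes, and the deletion of 1 exon in 1 cell type was not measured by itself. In A537T-TRAMP, whose allele changes 1 residue, Elac2 overlapped with WT-TRAMP at both ages. Libraries also differed in neighbouring tissue: the summed normalised count of 8 seminal vesicle genes was 496832, 12.5 and 220648 in the 30-week WT-TRAMP libraries and 30706, 75.1 and 11546 in the KO-TRAMP libraries. In the A537T-TRAMP libraries of that age it was 626736, 35.8 and 291957. At 10 weeks it was at most 54.0 in WT-TRAMP, 99.8, 5937 and 180136 in KO-TRAMP and 5025, 1156555 and 135158 in A537T-TRAMP.

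Several of the genes encode surface proteins that define macrophages or let them sense their surroundings. Adgre1 (ENSMUSG00000004730.15, chromosome 17, 57358691 to 57483527, plus strand, GRCm38) encodes F4/80, the surface marker of mature mouse macrophages, and Csf1r (ENSMUSG00000024621.16, chromosome 18, 61100598 to 61132149, plus strand) the receptor for CSF1 and IL-34. Cd14 (ENSMUSG00000051439.7, chromosome 18, 36725067 to 36726798, minus strand) encodes the co-receptor that hands lipopolysaccharide to TLR4, Fcgr3 (ENSMUSG00000059498.13, chromosome 1, 171051174 to 171064935, minus strand) an activating receptor for IgG, and Tyrobp (ENSMUSG00000030579.10, chromosome 7, 30413760 to 30417585, plus strand) the adaptor also called DAP12, through which receptors without a signalling tail work. Exons of Csf1r and of F13a1 overlap, on the opposite strand, those of Hmgxb3 by up to 873 bases and those of Gm30489 by up to 60 bases, and the counting was stranded.

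Of the lysosomal genes, Lyz2 (ENSMUSG00000069516.8, chromosome 10, 117277331 to 117282321, minus strand) encodes the lysozyme of macrophages, and Cd68 (ENSMUSG00000018774.13, chromosome 11, 69664213 to 69666153, minus strand) a glycoprotein of the lysosomal membrane. The scavenging receptors are Mrc1 (ENSMUSG00000026712.3, chromosome 2, 14229392 to 14332057, plus strand), which binds mannose on glycoproteins, and Cd163 (ENSMUSG00000008845.9, chromosome 6, 124304656 to 124330527, plus strand), which clears haemoglobin bound to haptoglobin. F13a1 (ENSMUSG00000039109.16, chromosome 13, 36867178 to 37050244, minus strand) encodes the A chain of coagulation factor XIII, a transglutaminase that cross-links fibrin. All 10 genes are protein coding. In sequence, 32.8% of the 31-base words of Lyz2 also occur in Lyz1, the lysozyme of Paneth cells, and 13.4% of those of Fcgr3 occur in Fcgr2b, the inhibitory IgG receptor. No other member shared as much as 1% of its words with any gene.

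The proximal promoters are printed for the members whose 30-week libraries lay above WT-TRAMP in both mutant lines and that had a window in the RefSeq promoter table (build GRCm38.p6). Each line gives the 250 bases before the RefSeq start of the transcript, 5′ to 3′ on the strand of the gene. Capitals mark matches, on either strand, to the core of the site of PU.1, the lineage factor of myeloid cells (GAGGAA or TTCCTC), to a C/EBP pattern (TTNCNNAA or TTNNGNAA) or to an AP-1 pattern (TGANTCA), and adjoining or overlapping matches run together.
Lyz2 (chr10:117282273-117282522, minus strand): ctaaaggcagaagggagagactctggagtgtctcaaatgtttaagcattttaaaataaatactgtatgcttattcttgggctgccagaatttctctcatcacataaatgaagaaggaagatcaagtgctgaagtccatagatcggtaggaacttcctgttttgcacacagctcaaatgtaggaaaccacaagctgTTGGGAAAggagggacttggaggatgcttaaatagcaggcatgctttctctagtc
F13a1 (chr13:37050245-37050494, minus strand): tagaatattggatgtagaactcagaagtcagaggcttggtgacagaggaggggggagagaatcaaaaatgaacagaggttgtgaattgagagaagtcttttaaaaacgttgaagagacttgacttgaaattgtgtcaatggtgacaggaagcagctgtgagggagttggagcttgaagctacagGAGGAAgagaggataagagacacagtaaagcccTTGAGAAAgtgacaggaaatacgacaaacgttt
Mrc1 (chr2:14229164-14229413, plus strand): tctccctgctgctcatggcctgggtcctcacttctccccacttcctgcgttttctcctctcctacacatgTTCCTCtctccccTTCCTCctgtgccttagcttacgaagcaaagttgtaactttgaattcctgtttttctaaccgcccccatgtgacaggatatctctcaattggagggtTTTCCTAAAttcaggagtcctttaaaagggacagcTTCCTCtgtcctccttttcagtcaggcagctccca
Cd163 (chr6:124304401-124304650, plus strand): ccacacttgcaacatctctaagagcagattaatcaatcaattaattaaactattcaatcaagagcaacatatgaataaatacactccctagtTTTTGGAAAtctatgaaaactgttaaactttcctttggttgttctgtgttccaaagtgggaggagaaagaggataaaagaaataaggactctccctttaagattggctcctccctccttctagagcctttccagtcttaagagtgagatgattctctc

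Mrc1 held 3 PU.1 and 2 overlapping C/EBP matches, and F13a1 held 1 of each in the printed window, which lies before its most upstream start. A second F13a1 window (chr13:37049214-37049463), before a start further downstream, held 0 matches to any of the 3. Lyz2 held a single C/EBP match, and Cd163 a pair of overlapping C/EBP matches with no PU.1 letters in the window. None of these 4 windows held an AP-1 match. Among 32851 promoter windows of the same length, 23.3% held the PU.1 letters, 36.8% the C/EBP pattern and 6.75% the AP-1 pattern, so matches of this kind are common. They are letters in a sequence and not measured binding.

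At 30 weeks the macrophage genes stood higher in KO-TRAMP than in WT-TRAMP prostates. Summed over the 10 genes, the normalised count was 3005 to 3906 per KO-TRAMP library and 1076 to 1304 per WT-TRAMP library. All 10 log2 fold changes were above 0, with a median of 1.38, beside a median of 0.010 over the 16900 genes tested. For 8 of the 10 genes every KO-TRAMP library lay above every WT-TRAMP library, which held for 10.8% of all genes. Only Lyz2 passed the test, limma on log2(normalised count + 1) with Benjamini-Hochberg adjustment over all genes and a threshold of 0.05, while 0.189% of all genes passed with a higher level. In whole lobes, more macrophages and more RNA of these genes per macrophage cannot be told apart. Fold changes on this scale understate the change of low genes.

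Lyz2 rose in KO-TRAMP. Its normalised counts were 328, 309.98 and 315 in WT-TRAMP and 1419.8, 1176 and 1230.2 in KO-TRAMP, or 1275 ± 128 against 317 ± 9.29 (mean ± SD, n = 3), a ratio of 4.02. Every KO-TRAMP library exceeded the highest WT-TRAMP library more than 3-fold, and the WT-TRAMP libraries lay close together. The log2 fold change was 2.00 (SE 0.11, adjusted p = 0.0135) by limma. Leaving out library 10, 11, 12 or 18 raised the adjusted p to 0.0811, 0.0764, 0.188 or 0.224 with a log2 fold change between 1.92 and 2.05, and over all alternatives it ran from 5.28e-42 to 0.224. Its relative Lyz1 had normalised counts of 1.12, 2.88 and 0 in WT-TRAMP and 4.12, 16.8 and 5.22 in KO-TRAMP, far below Lyz2 in every library.

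Cd68, the other lysosomal member, had normalised counts of 44.8, 41.3 and 45.6 in WT-TRAMP and 86.4, 136 and 114 in KO-TRAMP. Here too the groups were separate, with WT-TRAMP tightly grouped and KO-TRAMP between 86.4 and 136. Its log2 fold change of 1.31 (SE 0.24, adjusted p = 0.146) did not pass.

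F13a1 had the largest fold change of the 10 genes. Its normalised counts were 24.6, 52.8 and 22.8 in WT-TRAMP and 268, 245 and 229 in KO-TRAMP, a ratio of means of 7.40, and the lowest KO-TRAMP library was above 4 times the highest WT-TRAMP library. The log2 fold change was 2.95 (SE 0.35, adjusted p = 0.0501), just outside the threshold. With a pseudocount of 0.5 or 5, with no filter on low values or with TMM scaling it came just inside, at adjusted p-values of 0.0496, 0.0455, 0.0457 and 0.0479, and over all alternatives the adjusted p ran from 2.19e-10 to 0.354.

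The scavenging receptors went the same way without passing. Cd163 had normalised counts of 5.60, 4.80 and 14.8 in WT-TRAMP and 46.3, 72.2 and 53.3 in KO-TRAMP. WT-TRAMP was nearly devoid of the transcript, with at most 13 recovered reads in a library, whereas every KO-TRAMP library held at least 45. The log2 fold change was 2.76 (SE 0.50, adjusted p = 0.147). Mrc1 had normalised counts of 137, 196 and 150.5 in WT-TRAMP and 636, 347 and 511 in KO-TRAMP, with no overlap between the groups and a log2 fold change of 1.60 (SE 0.26, adjusted p = 0.117).

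Among the receptors of macrophage identity and survival, Csf1r had normalised counts of 308, 154 and 234 in WT-TRAMP and 721, 461 and 670.5 in KO-TRAMP. Library 17 was the lowest of KO-TRAMP and still lay above all WT-TRAMP libraries. The log2 fold change was 1.44 (SE 0.30, adjusted p = 0.216). Adgre1, in contrast, had normalised counts of 232, 138 and 125 in WT-TRAMP and 269, 219 and 255 in KO-TRAMP, and the groups overlapped because WT-TRAMP library 10 lay above KO-TRAMP library 17. Its log2 fold change of 0.63 (SE 0.26, adjusted p = 0.369) was well below that of Lyz2.

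The signalling members split. Tyrobp had normalised counts of 76.1, 64.3 and 95.7 in WT-TRAMP and 179, 212 and 185 in KO-TRAMP, separate groups and a log2 fold change of 1.29 (SE 0.20, adjusted p = 0.105). Fcgr3 had 66.0, 53.7 and 54.7 in WT-TRAMP and 154, 96.9 and 109 in KO-TRAMP, again without overlap, and a log2 fold change of 1.01 (SE 0.24, adjusted p = 0.273). Fcgr2b, with which it shares sequence, had 49.2, 48.9 and 43.3 in WT-TRAMP and 202, 96.9 and 108 in KO-TRAMP and a log2 fold change of 1.43 (SE 0.32, adjusted p = 0.244), so how the reads were divided between these receptors is uncertain. Fcgr4, a related activating receptor, had a log2 fold change of 0.52 (SE 0.32, adjusted p = 0.456) with overlapping groups. Cd14 had the smallest difference of all members, at 82.8, 61.4 and 69.5 in WT-TRAMP and 127, 40.1 and 84.6 in KO-TRAMP. The KO-TRAMP libraries lay both above and below the WT-TRAMP range, and the log2 fold change was 0.094 (SE 0.43, adjusted p = 0.918).

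**Figure D1:**
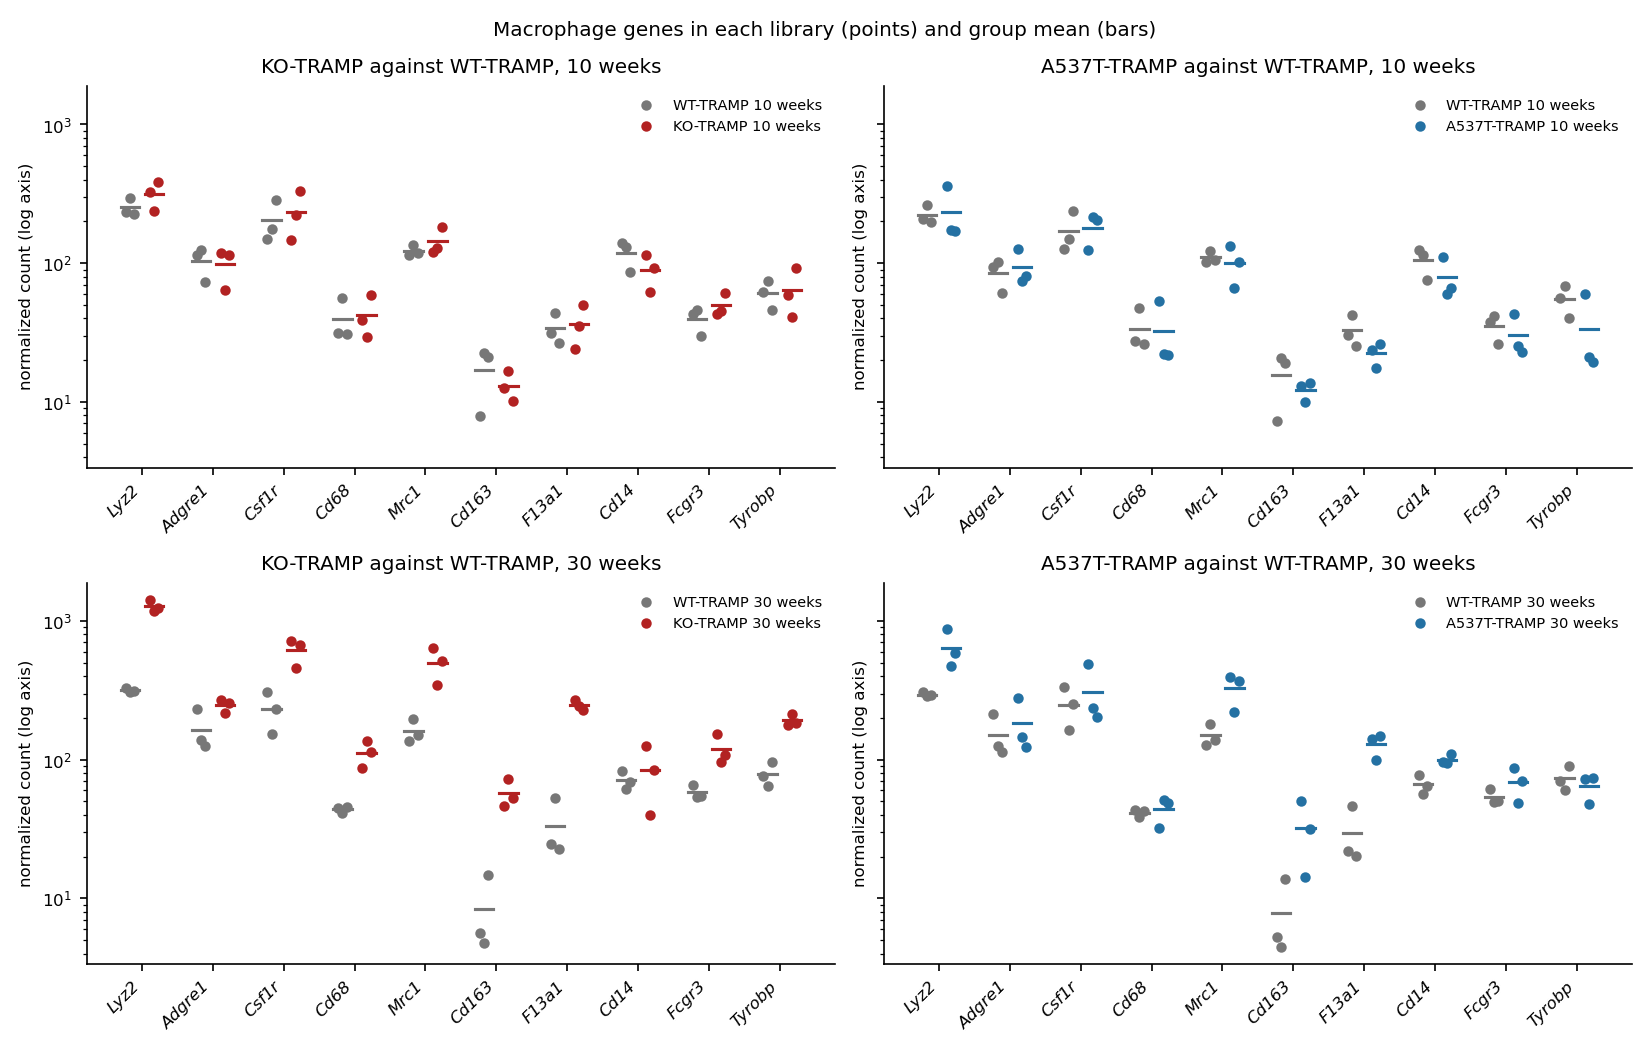
Normalised count (log axis) of the 10 macrophage genes in each library, 1 panel per table, with WT-TRAMP in grey, KO-TRAMP in red, A537T-TRAMP in blue, points for the 3 libraries of a group and a bar for their mean. At 30 weeks KO-TRAMP lies above WT-TRAMP without overlap for 8 genes and A537T-TRAMP for 5, while at 10 weeks the groups of every gene overlap.

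Genes of several other cell types stood higher along with the macrophage genes in this comparison. All 7 fibroblast genes lay above WT-TRAMP without overlap (10.8% of all genes did), with a sum of 17070.2 to 22553 in KO-TRAMP and 4322 to 4912 in WT-TRAMP, and Col1a2, Col3a1 and Col1a1, chains of the fibrillar collagens, rose by log2 fold changes of 1.77 (SE 0.096, adjusted p = 0.0135), 2.71 (SE 0.25, adjusted p = 0.0401) and 1.87 (SE 0.20, adjusted p = 0.0415) by limma. None of these 3 calls held without library 10, 11, 12 or 18. Of the 7 endothelial genes 5 lay above without overlap, and the list summed to 743 to 3419.9 against 465 to 602. The 6 of 8 dendritic cell genes that were tested had a median of 0.82, and the list summed to 377 to 458 against 221 to 232. Their part in the macrophage result was not tested. The sums of the 8 pan-leukocyte genes overlapped, at 1873 to 4254 against 3008 to 4665. Ptprc (CD45), which all leukocytes carry, had 479, 498 and 487 in WT-TRAMP and 922, 410.4 and 514 in KO-TRAMP. T cell genes summed to 121 to 150.1 against 129.8 to 169, also with overlap, and B cell genes, lower in KO-TRAMP without overlap, to 36.0 to 70.7 against 173 to 187. Neutrophils also express Lyz2, Cd14 and Tyrobp. The neutrophil genes were near the floor, with a sum of 36.4 to 82.3 against 41.3 to 83.2 over 11 genes. Of these, 4 (Ly6g, Ngp, Mpo and Elane) were at 0 in all 6 libraries, while Csf3r lay above WT-TRAMP without overlap. The part of neutrophils in the macrophage values was not tested.

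Single libraries weighed on the number of calls more than on the folds. The sum of 7 neuroendocrine genes was 4.12 in KO-TRAMP library 16 but 15426 and 9694 in libraries 17 and 18. What part this had in the calls or in the macrophage values was not tested. Without library 16 the test called 7 of the 10 members instead of 1. That rise ran through all genes, of which 3011 were called in place of 36, 11.1% of those tested with a higher level. Without library 10, 11, 12 or 18 it called 0. The median log2 fold change of the members stayed between 1.22 and 1.46 in these 6 fits. Library 11 of WT-TRAMP and library 17 of KO-TRAMP were the ones with the least seminal vesicle RNA at this age, at 12.5 and 75.1. Between these 2 alone, Lyz2 was 309.98 and 1176, and F13a1 52.8 and 245. These are single libraries, and the part of seminal vesicle RNA in the macrophage values was not tested.

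In A537T-TRAMP at 30 weeks the picture was narrower. The 10 genes summed to 1436 to 2505 per library against 1013 to 1258 in WT-TRAMP. Of the 10 log2 fold changes, 9 were above 0, with a median of 0.46 beside 0.00025 over the 16261 genes tested. For 5 genes, F13a1, Cd163, Mrc1, Lyz2 and Cd14, every A537T-TRAMP library lay above every WT-TRAMP library, against 7.36% of all genes. None passed by limma, and neither did any of all genes (0.0%). At an unadjusted p under 0.05 there were 1173 genes, and the 5 named members were among them (3.98% of all genes reached this with a higher level). The edgeR quasi-likelihood test also called 0 members, and DESeq2 called 3 (F13a1, Lyz2 and Mrc1), with 0.523% of all genes called higher. In KO-TRAMP at that age DESeq2 called 8 members and 3.38% of all genes higher.

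F13a1 again had the largest difference among the 10, with normalised counts of 22.1, 46.6 and 20.3 in WT-TRAMP and 142, 99.0 and 148 in A537T-TRAMP. The lowest A537T-TRAMP library was well above the highest WT-TRAMP library, and the log2 fold change was 2.17 (SE 0.35, adjusted p = 0.235). Without WT-TRAMP library 11, when 0.0676% of all genes were called higher, its adjusted p was 0.0262, and over all alternatives it ran from 1.88e-04 to 0.987. Cd163 had 5.27, 4.48 and 13.9 in WT-TRAMP and 50.8, 14.3 and 31.9 in A537T-TRAMP. Its lowest A537T-TRAMP library was only just above WT-TRAMP library 12, and the log2 fold change was 1.89 (SE 0.62, adjusted p = 0.666).

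Mrc1 had 128, 181 and 139.7 in WT-TRAMP and 392, 219 and 372 in A537T-TRAMP, with a log2 fold change of 1.10 (SE 0.25, adjusted p = 0.436). Lyz2 had 306, 287 and 291 in WT-TRAMP and 869, 477 and 583 in A537T-TRAMP, with a log2 fold change of 1.08 (SE 0.21, adjusted p = 0.357). In both, library 14 was the lowest of A537T-TRAMP and still above WT-TRAMP. For Cd14, at 78.0, 56.5 and 65.1 in WT-TRAMP and 95.9, 95.4 and 109.6 in A537T-TRAMP, the A537T-TRAMP libraries were close together and above WT-TRAMP, and the log2 fold change was 0.59 (SE 0.19, adjusted p = 0.663).

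The remaining 5 genes overlapped. Csf1r had 332, 164 and 251 in WT-TRAMP and 486, 236 and 202 in A537T-TRAMP, with library 13 alone above WT-TRAMP, and a log2 fold change of 0.25 (SE 0.38, adjusted p = 0.912). Adgre1, at 213, 126 and 114 in WT-TRAMP and 277, 147 and 124 in A537T-TRAMP, had the same order among the A537T-TRAMP libraries, with 0.24 (SE 0.36, adjusted p = 0.912). Fcgr3 had a log2 fold change of 0.32 (SE 0.26, adjusted p = 0.808) and Cd68 one of 0.056 (SE 0.26, adjusted p = 0.977). For Tyrobp, at 70.6, 60.1 and 89.6 in WT-TRAMP and 72.9, 47.7 and 73.8 in A537T-TRAMP, the sign was negative, −0.19 (SE 0.26, adjusted p = 0.902). The fibroblast genes summed to 6731 to 11264 in A537T-TRAMP against 4112 to 4681, again without overlap, and their part in the macrophage values was not tested. Neutrophil genes summed to 46.7 to 66.8 against 35.9 to 66.1, with 6 of 11 at 0 in all 6 libraries. In the libraries with the least seminal vesicle RNA, 11 of WT-TRAMP and 14 of A537T-TRAMP, Lyz2 was 287 and 477, and F13a1 46.6 and 99.0. These too are single libraries, and the part of seminal vesicle RNA was not tested. The A537T-TRAMP and KO-TRAMP comparisons share their WT-TRAMP libraries and are set side by side only.

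**Figure D2:**
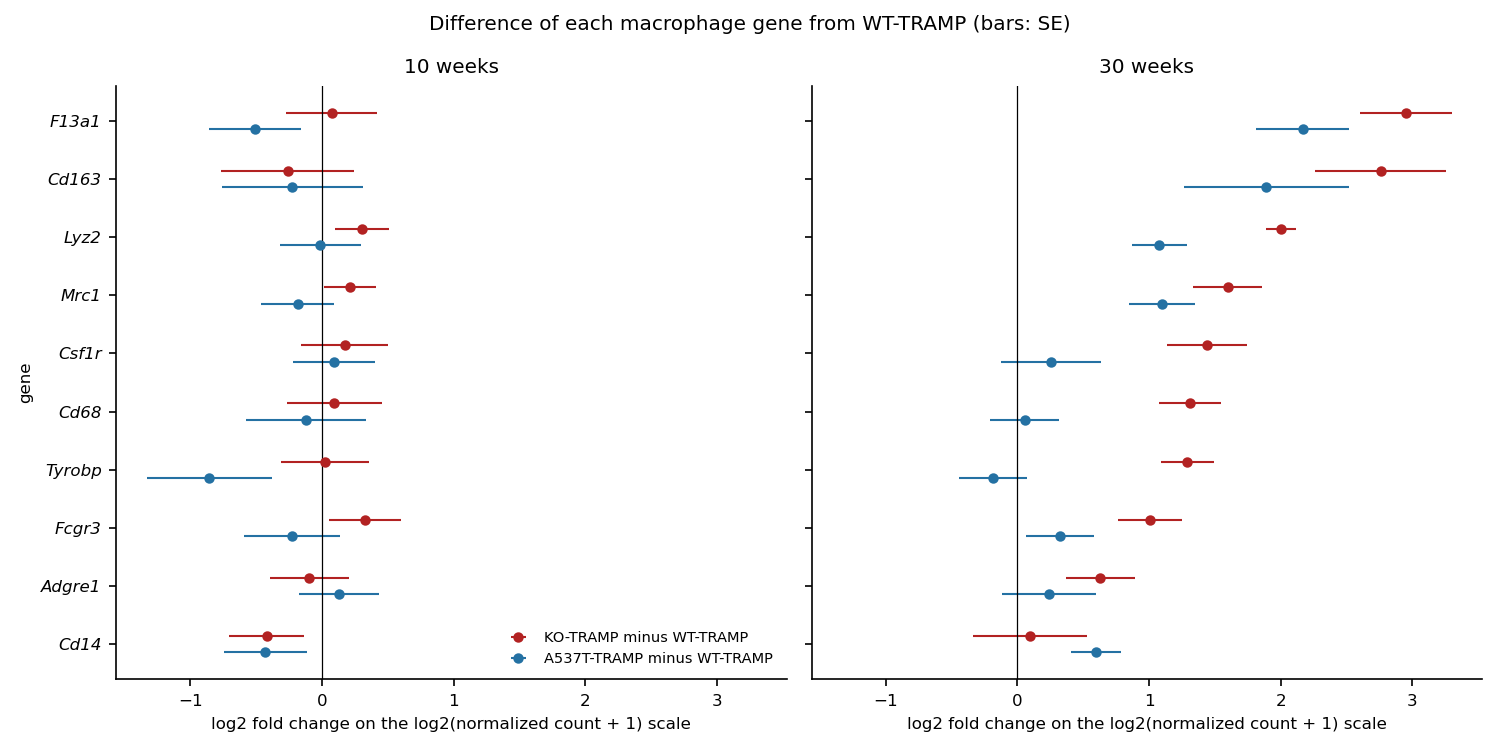
Log2 fold change of each macrophage gene (mutant minus WT-TRAMP, on the log2(normalised count + 1) scale, bars ± SE, 3 libraries against 3) at 10 weeks (left) and 30 weeks (right), KO-TRAMP in red and A537T-TRAMP in blue. At 30 weeks F13a1 and Cd163 lie farthest to the right in both lines, and Cd14 is the only gene with a larger value in A537T-TRAMP than in KO-TRAMP.

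At 10 weeks no macrophage gene separated the groups. In KO-TRAMP 7 log2 fold changes were above 0 and 3 below, from −0.42 (Cd14) to 0.33 (Fcgr3), with a median of 0.084. In A537T-TRAMP 2 were above 0 and 8 below, from −0.86 (Tyrobp) to 0.13 (Adgre1), with a median of −0.20. All 10 genes overlapped between groups in both lines, where 5.77% and 6.92% of all genes lay wholly higher, and 6.26% and 6.53% wholly lower. Limma called 0 members in either line (0.0129% and 0.00648% of the genes tested). No member reached an unadjusted p below 0.05, against 1026 and 1218 of the genes tested, and the edgeR quasi-likelihood test and DESeq2 called 0 as well.

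Lyz2 had normalised counts of 233, 297 and 226 in WT-TRAMP and 324, 236 and 387 in KO-TRAMP and a log2 fold change of 0.30 (SE 0.20, adjusted p = 0.826). KO-TRAMP library 9 was the highest and library 8 lay within the WT-TRAMP range. In the A537T-TRAMP table Lyz2 had 207, 264 and 199 in WT-TRAMP and 359, 172 and 171 in A537T-TRAMP. Library 4 was above WT-TRAMP and libraries 5 and 6 below it. F13a1, at 31.5, 43.7 and 26.4 in WT-TRAMP and 24.3, 35.3 and 49.6 in KO-TRAMP, had a log2 fold change of 0.073 (SE 0.35, adjusted p = 0.980), and Cd163, at 7.87, 22.5 and 20.9 in WT-TRAMP and 12.6, 16.6 and 10.1 in KO-TRAMP, one of −0.26 (SE 0.51, adjusted p = 0.950). Neither showed the gap it had at 30 weeks.

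Tyrobp gave the lowest value of the A537T-TRAMP table, with 56.2, 67.9 and 40.4 in WT-TRAMP and 60.2, 21.0 and 19.5 in A537T-TRAMP. Library 4 lay inside the WT-TRAMP range and libraries 5 and 6 far below it, and the log2 fold change was −0.86 (SE 0.48, adjusted p = 0.606). Those libraries, 5 and 6, were also the ones with the highest seminal vesicle sums, and their Ptprc counts were 148 and 126 against at least 223 in WT-TRAMP. What part this had in the Tyrobp value was not tested. Cd14, at 141, 129.98 and 85.9 in WT-TRAMP and 115, 61.7 and 91.8 in KO-TRAMP, had a log2 fold change of −0.42 (SE 0.28, adjusted p = 0.830), and in the A537T-TRAMP table one of −0.43 (SE 0.31, adjusted p = 0.646).

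Whether a gene differed from WT-TRAMP by more at 30 than at 10 weeks was tested as an interaction over the 12 libraries of a line. All 10 interaction values were above 0 in both lines, and limma called 0 of the 10 members and 0.0% of all genes in either line. An unadjusted p below 0.05 was reached by 7 members in KO-TRAMP, where 6.31% of all genes reached it with a positive value, and by 5 in A537T-TRAMP, where 2.66% did. The interaction was 1.69 (SE 0.25, adjusted p = 0.106) for Lyz2, 2.88 (SE 0.50, adjusted p = 0.143) for F13a1, 3.02 (SE 0.71, adjusted p = 0.212) for Cd163 and 1.38 (SE 0.34, adjusted p = 0.213) for Mrc1 in KO-TRAMP. Without library 16 these 4 passed, as did 6.84% of all genes with a positive value. In A537T-TRAMP it was 2.67 (SE 0.49, adjusted p = 0.596) for F13a1 and 1.28 (SE 0.39, adjusted p = 0.721) for Mrc1, and without library 11 F13a1 passed with an adjusted p of 0.0425 (with 0.00627% of all genes called with a positive value, and a range over alternatives of 0.0425 to 0.975).

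Levels of different genes were compared per length, as RPKM (recovered reads divided by the length of the merged exons and by the total of the library), with no test across tables. WT-TRAMP levels were read from the KO-TRAMP tables. Lyz2 was the most abundant of the 10 in every group. Its level was 87.3 in KO-TRAMP at 30 weeks (range 82.7 to 93.3), 43.1 in A537T-TRAMP (31.7 to 57.4) and 20.8 in WT-TRAMP (20.1 to 21.8). At 10 weeks its mean level was 21.5, 16.2 and 16.5 in the same order of lines. The ranges of KO-TRAMP and A537T-TRAMP at 30 weeks did not overlap each other or any other group, and KO-TRAMP at 10 weeks overlapped WT-TRAMP at 30 weeks.

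F13a1 was likewise highest in KO-TRAMP and then in A537T-TRAMP at 30 weeks, but at a lower level. Its 30-week level was 3.30 in KO-TRAMP and 1.70 in the A537T-TRAMP line, each clear of the next group. The means of the remaining groups lay between 0.302 and 0.484, with overlapping ranges. With the length of the longest transcript in place of merged exons the F13a1 levels were higher in every group, at 5.63 and 2.90 in these lines. For Csf1r, Cd68, Fcgr3 and Tyrobp only KO-TRAMP at 30 weeks stood clear of the next group. Tyrobp, second in this group to Lyz2, reached 26.0 there and 10.2 in WT-TRAMP. Cd163 was the least abundant, at 0.951 in KO-TRAMP, 0.523 in A537T-TRAMP and 0.133 in WT-TRAMP at 30 weeks.

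Cd14 had another order, with its highest mean in WT-TRAMP at 10 weeks (5.91) and its lowest in WT-TRAMP at 30 weeks (3.56). For Adgre1, Mrc1 and Fcgr3 all 3 means at 30 weeks stood above all 3 at 10 weeks, though the ranges of older and younger groups overlapped. The means of Adgre1 at 30 weeks were 6.88 in KO-TRAMP, 4.95 in A537T-TRAMP and 4.41 in WT-TRAMP. At 10 weeks they were 2.74, 2.63 and 2.76 in the same order of lines.

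**Figure D3:**
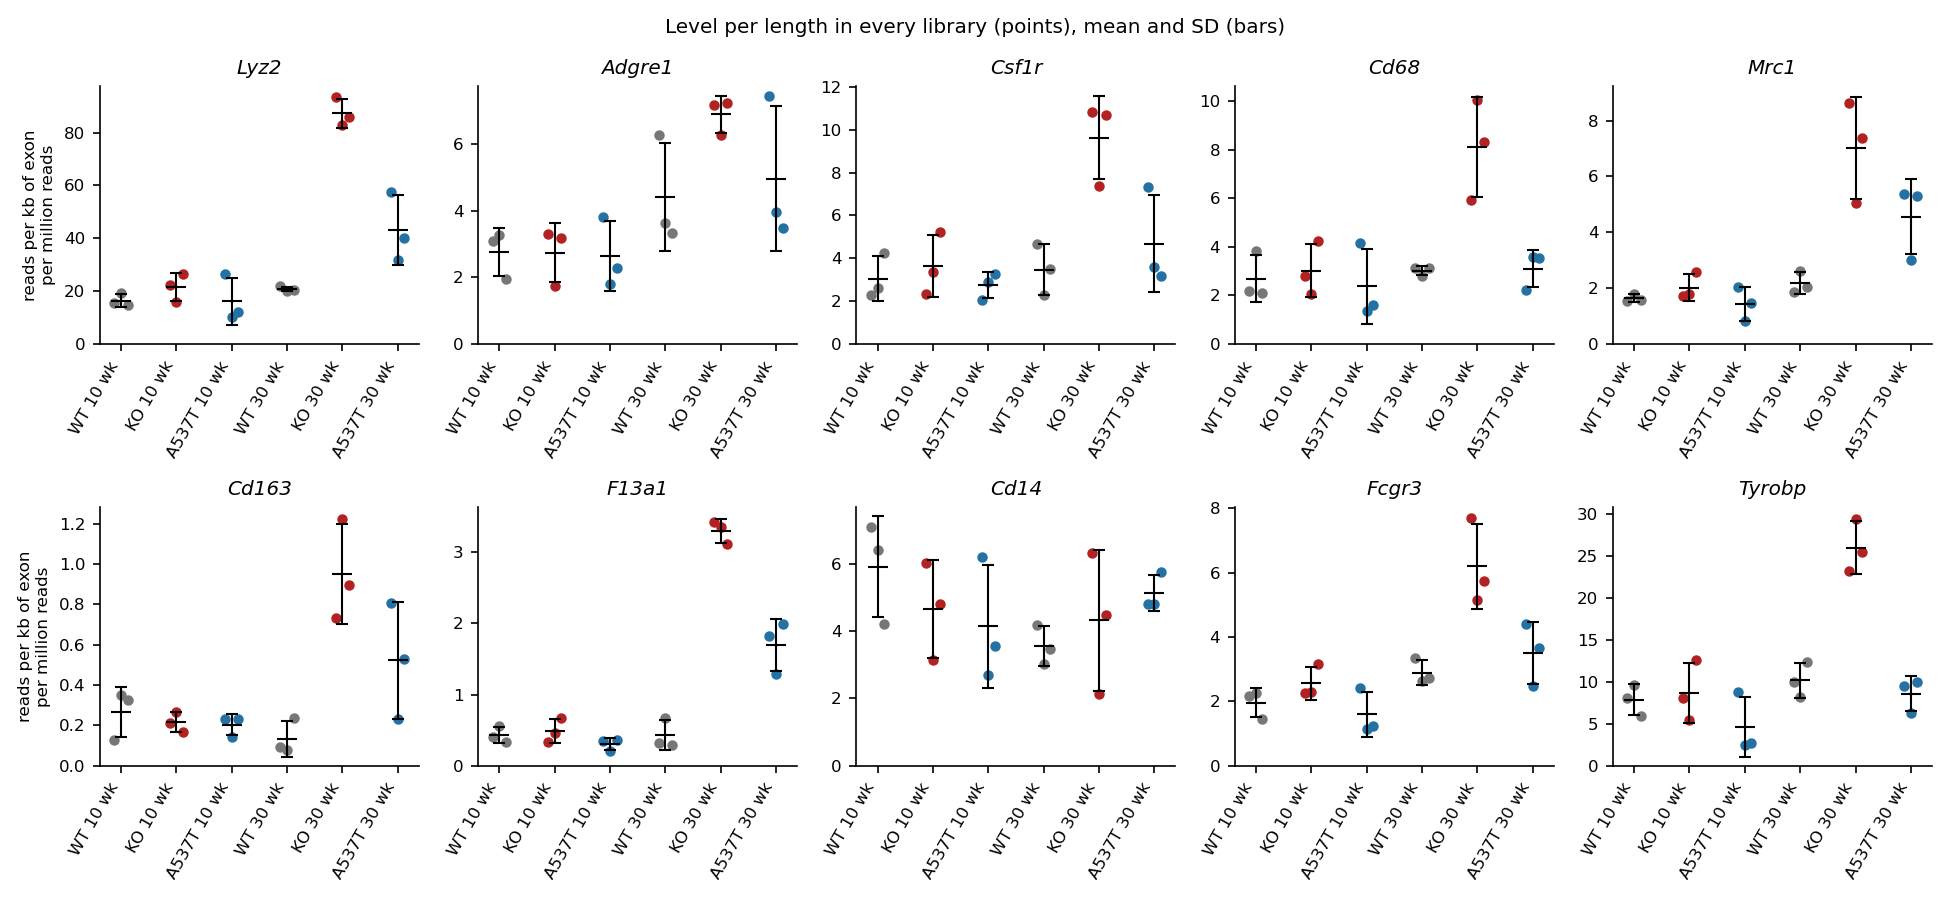
RPKM (recovered reads scaled by merged exon length and library total) of each macrophage gene in the 6 groups (WT-TRAMP grey, KO-TRAMP red, A537T-TRAMP blue), with points for the 3 libraries, a horizontal mark for the mean and bars for the SD. Lyz2 reaches 87.3 in KO-TRAMP at 30 weeks, while Cd14 shows no such peak.

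The members did not keep the same proportions to each other. Of all recovered reads of the 10 genes in a library, Lyz2 took 35.8% to 39.1% in KO-TRAMP at 30 weeks and 25.2% to 28.8% in WT-TRAMP, and F13a1 took 6.65% to 8.15% against 1.89% to 4.91%. The shares of Adgre1 (6.88% to 7.41% against 11.1% to 17.8%), Cd14 (1.33% to 3.24% against 5.71% to 6.35%) and Fcgr3 (3.16% to 3.95% against 4.85% to 5.06%) were smaller in KO-TRAMP without overlap. Shares of Csf1r, Cd68, Mrc1 and Tyrobp overlapped. In A537T-TRAMP the share of Lyz2 was 33.1% to 34.7% against 24.3% to 28.3% and that of F13a1 5.66% to 8.37% against 1.76% to 4.60%. The shares of Tyrobp (2.91% to 4.19% against 5.61% to 8.32%) and Fcgr3 (3.41% to 3.96% against 4.65% to 4.87%) were smaller there without overlap. Shares of a whole sum to 100%, so a larger share of 1 gene makes the others smaller.

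Ratios within a library do not depend on the size factor. Per read of Adgre1 there were 0.898 to 1.12 reads of F13a1 in KO-TRAMP at 30 weeks and 0.512 to 1.19 in the A537T-TRAMP line, against 0.106 to 0.382 in WT-TRAMP. For Lyz2 the ratio to Adgre1 was 4.83 to 5.38 and 3.14 to 4.72 against 1.42 to 2.51. At 10 weeks the F13a1 ratios of KO-TRAMP and WT-TRAMP overlapped, at 0.206 to 0.554 and 0.275 to 0.358. Against Ptprc, the 30-week Lyz2 ratio was 1.54 to 2.87 in KO-TRAMP, 1.17 to 1.84 in A537T-TRAMP and 0.622 to 0.685 in WT-TRAMP. It was also apart at 10 weeks, at 1.10 to 1.24 in KO-TRAMP and 1.16 to 1.35 in A537T-TRAMP against 0.688 to 0.903 in WT-TRAMP. At that age Lyz2 itself overlapped with WT-TRAMP in both lines. The mean of Ptprc, the denominator, was 82.0% of WT-TRAMP in KO-TRAMP and 61.6% in A537T-TRAMP. The ratio of Adgre1 to Ptprc overlapped at 30 weeks, at 0.291 to 0.533 in KO-TRAMP, 0.312 to 0.585 in A537T-TRAMP and 0.258 to 0.484 in WT-TRAMP. At 10 weeks it was 0.471 to 0.636 in A537T-TRAMP against 0.271 to 0.308, without overlap, and 0.335 to 0.402 in KO-TRAMP against 0.295 to 0.338, with overlap. Where both lines are set against the same WT-TRAMP range, that range was read from the KO-TRAMP table. These ratios are descriptions with no test.

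**Figure D4:**
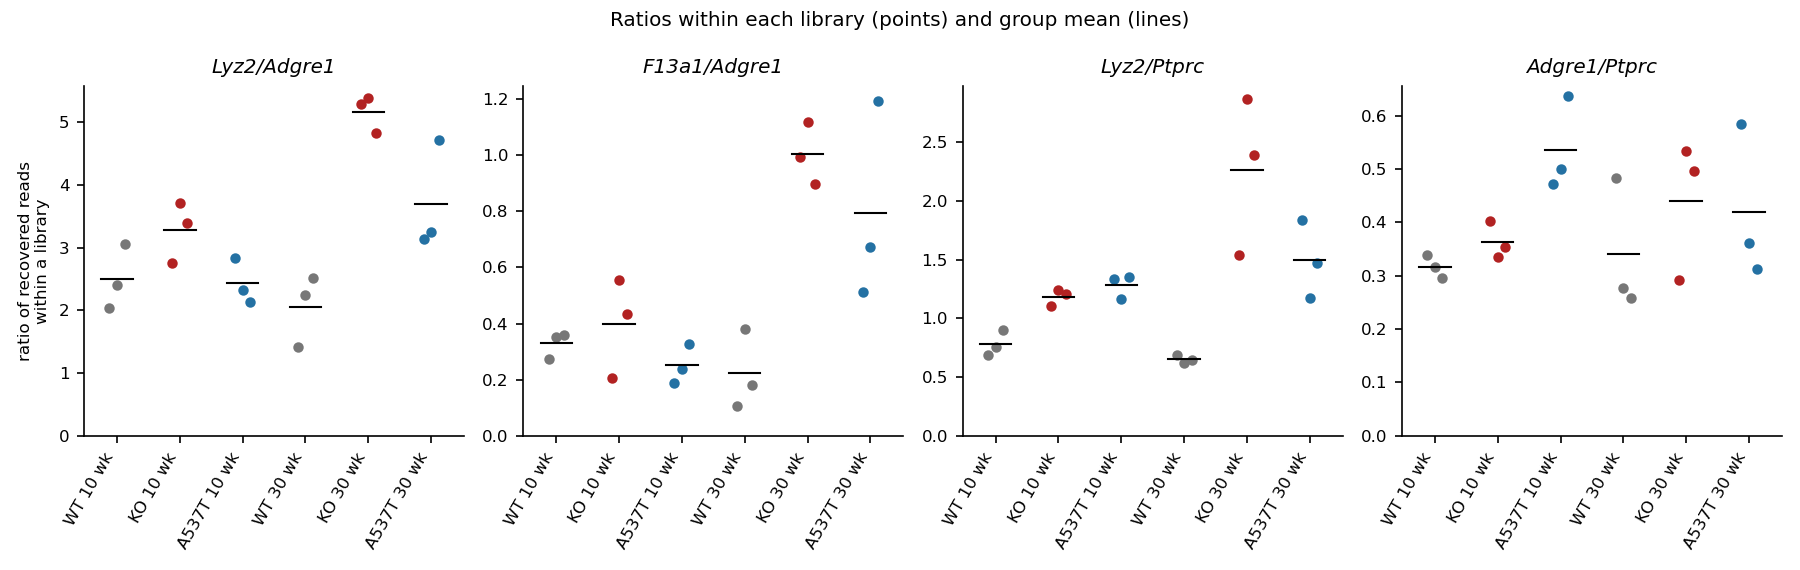
Ratio of recovered reads within each library for Lyz2 and F13a1 to Adgre1 and for Lyz2 and Adgre1 to Ptprc, in the 6 groups (WT-TRAMP grey, KO-TRAMP red, A537T-TRAMP blue), with points for libraries and lines for means. F13a1 per Adgre1 is 0.898 to 1.12 in KO-TRAMP at 30 weeks and at most 0.382 in WT-TRAMP of that age, while Adgre1 per Ptprc overlaps between the groups of that age.

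Over the 18 libraries, taken as log2 differences from WT-TRAMP of the same table, Lyz2 followed the mean of the other 9 members most closely (Pearson r = 0.979), then Mrc1 (0.940), and Cd14 least (0.440). The closest partner of F13a1 was Mrc1 (r = 0.945), and that of Tyrobp was Cd68 (0.872). Among 14944 other genes the patterns most like the mean of the members were those of Fcrls, an Fc receptor-like scavenger receptor (r = 0.943), C1qa, a chain of complement C1q (0.942), Serping1, the C1 inhibitor (0.941), Lox, which cross-links collagen (0.936), and Smim15 (0.922). These libraries share groups and tables, so the correlations describe a common pattern only. In KO-TRAMP at 30 weeks Serping1 rose by 1.20 (SE 0.096, adjusted p = 0.0313) on the log2 scale, a call that did not hold without library 10, 11, 12 or 18, and Fcrls had 1.91 (SE 0.25, adjusted p = 0.0684). In A537T-TRAMP their values were 0.88 (SE 0.29, adjusted p = 0.666) and 1.10 (SE 0.31, adjusted p = 0.578).

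The pathways in which the members work were read from 11 gene lists, some of which share genes. In KO-TRAMP at 30 weeks the list of resident macrophage genes had 11 of its 14 genes tested, a median of 0.97, 7 genes without overlap above WT-TRAMP and 1 that passed. Over all genes of this comparison, to which the counts of every list can be held, 10.8% lay wholly above WT-TRAMP and 9.48% wholly below. The gene that passed was C1qb, a chain of complement C1q made by tissue macrophages, at 504 ± 13.7 against 237 ± 15.6 with a log2 fold change of 1.09 (SE 0.11, adjusted p = 0.0415). C1qa was at 0.92 (SE 0.11, adjusted p = 0.0501), just outside. Of the 12 monocyte genes 11 were tested, with a median of 0.41, and only Fn1 (fibronectin), which fibroblasts also make, passed, at 1.04 (SE 0.11, adjusted p = 0.0415). Without library 10, 11, 12 or 18 neither call held. In the other 9 lists none passed in either direction.

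No difference between lists was tested. The list of scavenger receptors and lysosome had 8 of 13 tested genes above WT-TRAMP without overlap and 1 below, with a median of 0.67. Its smallest p belonged to Ctss, the lysosomal protease cathepsin S, at 0.91 (SE 0.12, adjusted p = 0.0684). The ITAM partners and Fc receptors had 7 of 11 above, with a median of 0.75, led by Fcer1g, the common signalling chain of Fc receptors, at 1.01 (SE 0.22, adjusted p = 0.235). Lipid associated macrophage genes had 4 of 10 above and 1 below, with a median of 0.92. The latter was Lpl (lipoprotein lipase), at −1.14 (SE 0.21, adjusted p = 0.152). Activation genes had 3 of 7 above and a median of 0.81, led by Arg1 at 1.07 (SE 0.24, adjusted p = 0.244).

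Chemokines and receptors of monocytes had 3 of 9 above and a median of 0.60, led by the chemokine Ccl8 at 2.48 (SE 0.43, adjusted p = 0.134). The list of CSF1R ligands and myeloid growth factors had a median of 0.060 and 1 of 5 above, which was Csf3r, the receptor for G-CSF, at 0.97 (SE 0.39, adjusted p = 0.368). Myeloid transcription factors had 2 of 10 above and a median of 0.33, led by Klf4 at 0.56 (SE 0.15, adjusted p = 0.323). For the TLR4 complex, to which Cd14 belongs, 1 of 11 was above, 1 below and the median was −0.11, a count near the share over all genes, with the lipopolysaccharide-binding protein Lbp at 1.93 (SE 0.51, adjusted p = 0.306). Pan-leukocyte genes had 2 of 8 above and a median of 0.23, led by Cd53 at 0.95 (SE 0.28, adjusted p = 0.327).

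In A537T-TRAMP at 30 weeks no gene of these lists passed, and the list medians ran from −0.13 (lipid associated macrophage genes) to 0.85 (monocyte chemokines and receptors). The gene with the smallest p was Igf1 in the resident list, at 714 ± 226 against 138 ± 25.2 and 2.33 (SE 0.25, adjusted p = 0.124), Ccr2, the receptor that monocytes use to leave the marrow, in both monocyte lists, at 0.88 (SE 0.18, adjusted p = 0.413), Stab1, a scavenger receptor, in its list, at 0.77 (SE 0.16, adjusted p = 0.428), and Lbp among the TLR4 genes, at 1.52 (SE 0.24, adjusted p = 0.235). The other lists were led by Csf1, a ligand of CSF1R, at 0.33, Klf4 at 0.50, Fcgr2b at 0.57, Lpl at −0.80, Retnla at 2.39 and Rac2 at 0.25, with adjusted p-values from 0.536 to 0.826. At 10 weeks none of the 11 lists had a gene that passed in either line.

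**Figure D5:**
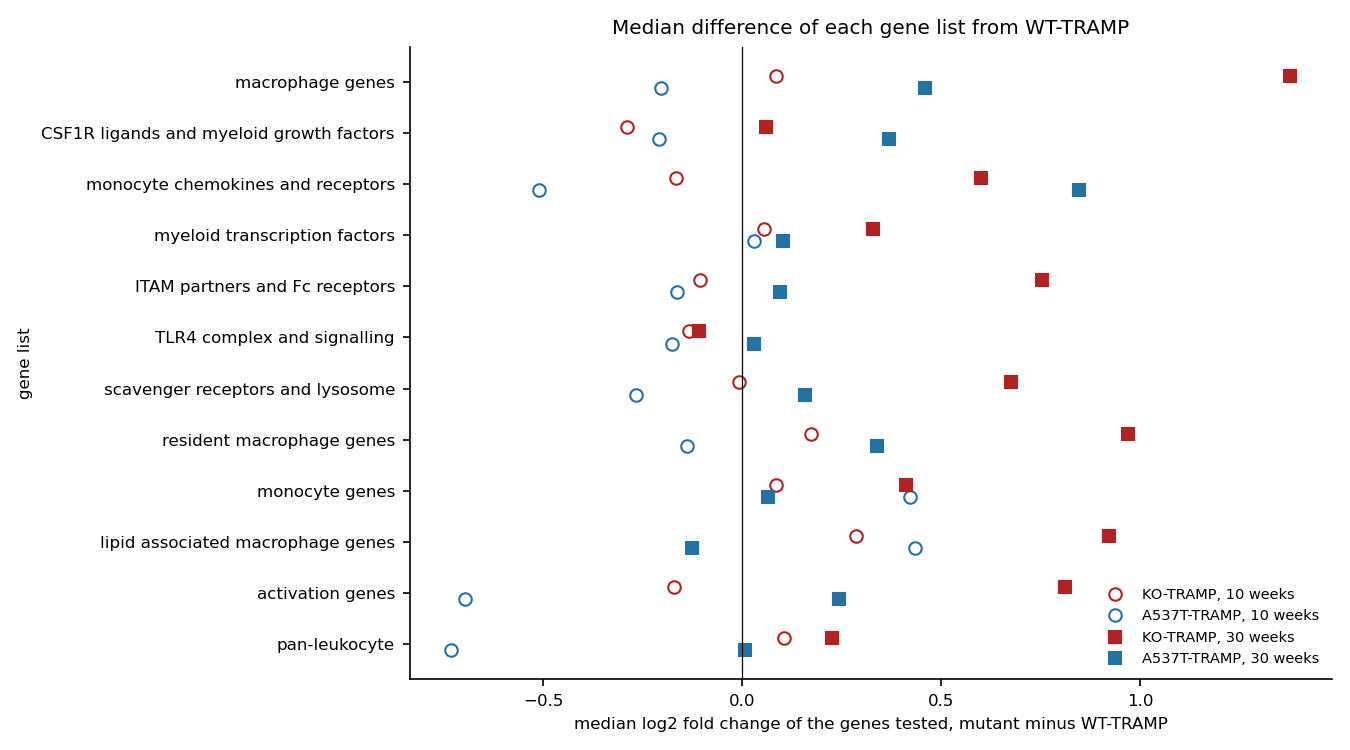
Median log2 fold change (mutant minus WT-TRAMP) of the tested genes of the macrophage genes and of 11 related lists, with KO-TRAMP in red, A537T-TRAMP in blue, open circles for 10 weeks and filled squares for 30 weeks. The macrophage genes have the highest median of KO-TRAMP at 30 weeks, 1.38, and the TLR4 complex a median of −0.11.

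The remaining cell type lists are given for the same KO-TRAMP comparison at 30 weeks as ranges of the summed normalised count, KO-TRAMP first. Lymphatic endothelium, whose marker Lyve1 macrophages also express, was at 372 to 2754 against 183 to 1270.1, with Lyve1 at 2.55 (SE 0.35, adjusted p = 0.0719). Genes listed for megakaryocytes and platelets, cells that carry F13a1, were at 39.7 to 57.6 against 12.5 to 35.8. Among them Gp9 and Treml1 were at 0 in all 6 libraries and Pf4 was at 3.68 (SE 0.75, adjusted p = 0.201). In whole lobes the cells from which the Pf4 RNA came cannot be told. The lists for mast cells (128 to 1007 against 147 to 621), smooth muscle (7539.5 to 37023 against 14998 to 25368), luminal epithelium (28301 to 29599 against 22671 to 30159), basal epithelium (411 to 2340.4 against 393 to 423) and proliferation (8524 to 29517 against 8964 to 15052) overlapped. Among B cell genes Jchain was at −1.91 (SE 0.47, adjusted p = 0.284). Adipose genes were at 49.4 to 528 against 444 to 1211, with Plin1 at −3.43 (SE 0.72, adjusted p = 0.222), and erythrocyte genes at 282 to 585 against 179 to 189. The sums of the platelet and erythrocyte lists did not overlap between groups. None of these genes passed, and their part in the macrophage values was not tested.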

How the data were processed

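RNA-seq libraries from 18 mice were assigned to line and age by their labels. Per the labels and the study's methods, reads were trimmed with Trim Galore (0.4.1) and cutadapt (1.18), aligned with STAR (2.7.3a) to GRCm38 masked for nuclear mitochondrial sequences, quantified by strand with Salmon on GENCODE genes, imported with tximport and normalised with DESeq2 (1.26). The authors deposited 4 tables of a signal, the estimated count divided by a size factor, each for 6 libraries. Column headers carry a library number only, and the 3 columns found in both tables of an age were taken as WT-TRAMP. All values were whole multiples (within 0.01) of 1 step per library, so 9380174 to 14830104 whole reads per library were recovered. These recovered reads are estimated counts in whole numbers and not directly counted reads. Between 30.9% and 37.6% of genes of a WT-TRAMP library had identical reads in both of its tables, so tests stayed within a table. The authors' own comparison tables (shrunken fold changes and s-values) were not used.

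Each line was compared with WT-TRAMP of its age by limma 3.58.1 (trend, two-sided, R 4.3.3) on log2(normalised count + 1), for genes with a mean of at least 10, adjusted by Benjamini-Hochberg and called below 0.05. The effect at 30 minus that at 10 weeks was an interaction over 12 libraries with an intercept per table. p-values measure the spread between 3 mice per group. The procedure was tested on simulated data. Alternatives were pseudocounts of 0.5 and 5, no filter, TMM scaling, edgeR 4.0.16 and DESeq2 1.42.0 on recovered reads, and leaving out each library. Levels per length used merged exons of GENCODE (GRCm38, an earlier release than the authors used). Symbols were found for 55142 of 55469 IDs.

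The members, 11 pathway lists, 17 cell type lists and 3 motifs were chosen with earlier results of these data known. Named genes were the members, Elac2, sequence relatives (Lyz1, Fcgr2b, Fcgr4), up to 3 genes that passed per list and direction or else the one with the smallest p, and the 5 genes most like the mean of the members. Ptprc, as the denominator of ratios, and genes named because they were at 0 were added after values were seen. RefSeq promoter windows were used for the 6 members matched outside chromosome 18.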

Additional observations from a re-analysis of the deposited data

How the results depend on the processing

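No paired analysis was possible because the column headers carry no replicate numbers. The number of members called in KO-TRAMP at 30 weeks was 1 in the main test, 2 with a pseudocount of 0.5 or 5, no filter or TMM scaling, 8 with DESeq2, and 0 to 7 on leaving out a library. In the A537T-TRAMP line at that age the number was 0, or 3 with DESeq2, and 0 to 1 on leaving out a library, and in the interactions 0, or 0 to 4 (KO-TRAMP) and 0 to 1 (A537T-TRAMP). Genes called numbered 36 in KO-TRAMP at 30 weeks, 15 with edgeR, 805 with DESeq2 and 0 to 3011 on leaving out a library (3011 without library 16); in A537T-TRAMP 0, 165 with DESeq2 and 0 to 136. At 10 weeks they were 2 in KO-TRAMP, 0 with edgeR, 81 with DESeq2 and 1 to 9, and 1 in A537T-TRAMP, 0 with a pseudocount of 0.5 or edgeR, 148 with DESeq2 and 0 to 38. The KO-TRAMP interaction called 0 genes, 1 with a pseudocount of 5 or no filter and 0 to 1930 on leaving out a library, and that of A537T-TRAMP 0 to 19. The causes were not tested.

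The median of the members ran, on leaving out a library, over −0.14 to 0.23 (KO-TRAMP) and −0.46 to −0.042 (A537T-TRAMP) at 10 weeks, 1.22 to 1.46 and 0.38 to 0.61 at 30 weeks, and 1.13 to 1.56 and 0.65 to 1.24 in the interactions. The sign of these single genes turned on leaving out a library: in KO-TRAMP at 10 weeks, Adgre1 −0.32 to 0.19, Csf1r −0.12 to 0.46, Cd68 −0.17 to 0.37, F13a1 −0.17 to 0.33, Tyrobp −0.27 to 0.30; in A537T-TRAMP at 10 weeks, Lyz2 −0.37 to 0.17, Adgre1 −0.11 to 0.27, Csf1r −0.10 to 0.36, Cd68 −0.54 to 0.14, Mrc1 −0.41 to 0.085, Cd163 −0.67 to 0.027; in KO-TRAMP at 30 weeks, Cd14 −0.27 to 0.54; in A537T-TRAMP at 30 weeks, Adgre1 −0.11 to 0.51, Csf1r −0.13 to 0.50, Cd68 −0.066 to 0.27, Tyrobp −0.32 to 0.017; and in the A537T-TRAMP interaction, Adgre1 −0.23 to 0.39, Csf1r −0.22 to 0.41, Cd68 −0.086 to 0.60. Lyz2 in A537T-TRAMP at 10 weeks also turned with edgeR (0.088) and DESeq2 (0.076). Of the other values for single genes and levels, 750 kept direction and side of the threshold, 26 newly passed it (all at 30 weeks or in the interactions), 4 lost it (Lyz2 without library 10, 11, 12 or 18) and 15 levels (of Csf1r, Mrc1, F13a1 and Fcgr3) moved by more than their SD with the longest transcript as length. With 3 libraries per group, and fewer than 100 reads per library for Cd163, the precision of low genes was limited.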
